A study of Mus musculus with 59 samples.

Results

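The genes described here are 37 autism risk genes whose products remodel, write, erase or read chromatin, assist or carry out transcription, or mark proteins for turnover. They were taken by symbol from a list of known risk genes, drawn up with earlier results of these data known, and all 37 were found among the 51456 gene identifiers measured and passed the filter on low values that left 16919 genes for testing. The samples were prefrontal cortex from C57BL/6J mice, either wild type (WT) or heterozygous for Ank2 (HT), the gene of the membrane scaffold ankyrin-B. The kind of allele is not given in the sources used here. Pups received vehicle, fluoxetine, a serotonin reuptake inhibitor, or lithium, a mood stabiliser, through the mother's milk from postnatal day 3 to 24, and tissue was taken on day 25. Dose, litter and mother are not given in the sources used here, so pups of 1 mother may share a treatment. There were 10 libraries for each of WT vehicle, WT lithium, HT vehicle, HT fluoxetine and HT lithium, and 9 for WT fluoxetine, with 5 per sex except for the 4 male WT fluoxetine mice.

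Chromatin regulators act on the packaging of DNA. Remodelling ATPases slide or evict nucleosomes, methyltransferases and demethylases set and remove methyl groups on histone tails, readers dock on those marks, and co-activators, co-repressors and the Mediator complex pass the state of the chromatin on to RNA polymerase II. Loss of 1 copy of many of these genes is a recognised cause of autism and intellectual disability, and most are active in developing cortical neurons. Ubiquitin ligases and kinases act further along, on the stability and activity of proteins.

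The values are normalized estimated counts, and summed to between 30.3 and 33.8 M per library. Ank2, the targeted gene, was lower in each of the 30 HT libraries (17431 to 22813) than in each of the 29 WT libraries (23284 to 35821), and fell by 0.54 on the log2 scale between the vehicle groups (adjusted p = 4.99e-15). Cortical identity was checked by markers of excitatory neurons, and the vesicular glutamate transporter Slc17a7 lay between 34580 and 60474 in every library. In 4 libraries the markers of choroid plexus, striatum or dentate gyrus, or the Xist level, stood apart. They were HT fluoxetine female replicate 2, with raised choroid plexus and dentate gyrus markers, HT fluoxetine female replicate 4, whose Xist count of 9791 lay below the 27076 to 43149 of the other females, HT lithium male replicate 1 and HT vehicle male replicate 2, the last 2 with raised striatal markers. Without these 4 libraries the members called in HT mice were 0 by genotype, 9 with fluoxetine, 1 with lithium, 0 for either drug as HT minus WT, and 8 higher and 1 lower for fluoxetine against lithium. Olfactory bulb markers were not part of that check. Their level lay more than 1.5 log2 units above the median library in 6 other libraries, among them WT fluoxetine male replicate 1 (2.10), and their part in the results below was not tested apart from a fit with marker levels as covariates.

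All 37 genes were well expressed. Their mean normalized counts ran from 709 for Asxl3 to 11331 for Tcf4, with a median of 3019 against 545 over all genes tested. Per kilobase of transcript, a scale on which genes can be roughly compared with each other, the WT vehicle level was highest for Tcf4 (3808 per kb), a basic helix-loop-helix factor of neurons, then for the BAF subunit Smarcc2 (2389 per kb), the chromatin regulator Ankrd11 (1329 per kb) and Tbr1, the identity factor of deep-layer projection neurons (1267 per kb). Length was the plain mean over a gene's annotated transcripts, 24 for Tcf4 (2.91 kb), so these levels depend on the isoforms listed. The lowest were Asxl3 (61.7 per kb), a Polycomb-associated protein, and the demethylase Kdm6b (171 per kb). Spread between WT vehicle libraries was small, with a coefficient of variation under 10% for 30 of the 37 genes and a median of 5.94%. The widest were Kdm6b (17.9%), an activity-responsive gene, and the cortical factors Tbr1 (17.7%) and Foxp1 (15.2%). In bulk tissue, fewer cells of a type and less RNA per cell cannot be told apart.

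The promoters of these genes are shown for some of the members that moved most, and many, though not all, are rich in CpG. RefSeq promoter entries (GRCm38.p6) were matched for 28 of the 37 genes and gave 35 start sites, of which the 250 bases before the start were read. Printed below, 5′ to 3′ with every CpG in capitals, are the promoters of the 3 members with the largest fluoxetine response in WT mice among those called in both genotypes and listed with a single start site. They lie at chr3:22076402-22076651 on the plus strand (Tbl1xr1), chr16:4213405-4213654 on the minus strand (Crebbp) and chr5:118560469-118560718 on the plus strand (Med13l). The RefSeq starts are not always the outermost start of the GENCODE gene. The Crebbp window lies wholly inside the gene (chr16:4081328-4213997), and the Med13l window runs past the gene start at 118560679. Windows of some other members, such as Setd5, also lie inside the gene.
Tbl1xr1: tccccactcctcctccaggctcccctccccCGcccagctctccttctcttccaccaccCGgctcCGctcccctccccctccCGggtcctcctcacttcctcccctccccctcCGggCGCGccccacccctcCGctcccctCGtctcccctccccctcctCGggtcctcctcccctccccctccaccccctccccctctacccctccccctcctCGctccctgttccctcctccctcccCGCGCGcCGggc
Crebbp: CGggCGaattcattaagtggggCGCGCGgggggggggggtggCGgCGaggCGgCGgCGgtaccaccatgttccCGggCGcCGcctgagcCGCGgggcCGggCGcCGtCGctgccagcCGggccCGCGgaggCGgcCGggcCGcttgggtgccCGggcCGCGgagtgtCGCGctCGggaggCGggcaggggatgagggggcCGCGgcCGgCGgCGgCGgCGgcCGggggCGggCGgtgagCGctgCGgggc
Med13l: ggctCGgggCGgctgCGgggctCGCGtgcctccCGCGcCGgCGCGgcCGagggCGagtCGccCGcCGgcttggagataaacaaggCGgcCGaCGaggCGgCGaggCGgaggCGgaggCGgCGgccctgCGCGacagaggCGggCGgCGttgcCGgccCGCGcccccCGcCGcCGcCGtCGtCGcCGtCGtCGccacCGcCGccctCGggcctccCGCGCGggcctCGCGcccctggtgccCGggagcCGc
These hold 15, 44 and 51 CpG, with G and C making up 76%, 84% and 84% of the bases. Over the 35 member promoters the median was 23 CpG, with a range from 0 to 51, against a median of 6 over all 32851 promoters in the table. At least 15 CpG were found in 24 of the 35, against 27.3% of all promoters. The GC box GGGCGG, searched on both strands, was present in 28 of 35 (80%), against 32.7% of all promoters, and it overlaps CpG by its own letters. The TATA box TATAAA was in 1 of 35, against 12.4%, the E-box CACGTG in 1 (6.02% of all), the ETS core CCGGAAG in 1 (6.91%), the palindromic NRF1 motif in 0 (0.782%) and the cyclic AMP element TGACGTCA in 0 (1.55%). These matches describe letters in a window and were not tested against the expression changes. The reference of all promoters was not matched for expression, while the members are all well expressed.

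Reduced Ank2 dosage came with no called change in these genes. Between HT vehicle and WT vehicle the 37 log2 differences ran from −0.09 to 0.05 with a median of 0.01, and none passed a Benjamini-Hochberg adjusted p under 0.05 in limma, nor an unadjusted p under 0.05. Of all genes tested 0.00591%, which is Ank2 alone, was called in this comparison. The smallest unadjusted p belonged to Bcl11a, a zinc finger repressor of projection neurons, whose normalized counts were 2937 to 3404 (median 3062) in WT vehicle and 2724 to 3192 (median 2935) in HT vehicle mice. The groups overlapped, and the log2 difference was −0.09 (SE 0.046, adjusted p = 1). Next came Smarcc2, with 7773 to 8745 (median 8189) in WT vehicle and 7912 to 8983 (median 8442) in HT vehicle mice, a log2 difference of 0.05 (SE 0.030). The median standard error over the 37 genes was 0.044. For each of the 37 genes the ranges of the WT vehicle and HT vehicle libraries overlapped.

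Fluoxetine raised many of these genes, each by a small amount. In WT mice 21 of the 37 (56.8%) were called higher and 0 lower, where 7.0% of all genes tested were called higher and 7.78% lower. The median log2 difference of the 37 was 0.14 against −0.00 over all genes, and 35 of 37 lay above 0. After a correction for transcript length and GC share, described below, 7 of the 37 were called higher in WT mice with a median of 0.05. All 37 transcripts are longer than the median gene tested, and the counts by role below are uncorrected. In HT mice 9 (24.3%) were called higher and 0 lower, where the table had 6.63% higher and 7.38% lower, with a median of 0.07 and 34 of 37 above 0. All 9 genes called in HT mice were also called in WT mice, which is 42.9% of the WT set: Ankrd11, Arid1b, Ash1l, Crebbp, Dyrk1a, Foxp1, Med13l, Tbl1xr1 and Wac. The 12 called in WT mice alone were Adnp, Chd8, Cul3, Kmt2c, Kmt2e, Mbd5, Med13, Nsd1, Setd5, Smarcc2, Tcf4 and Trip12. The largest fold was 1.25, for Tbl1xr1 in WT mice.

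**Figure D1:**
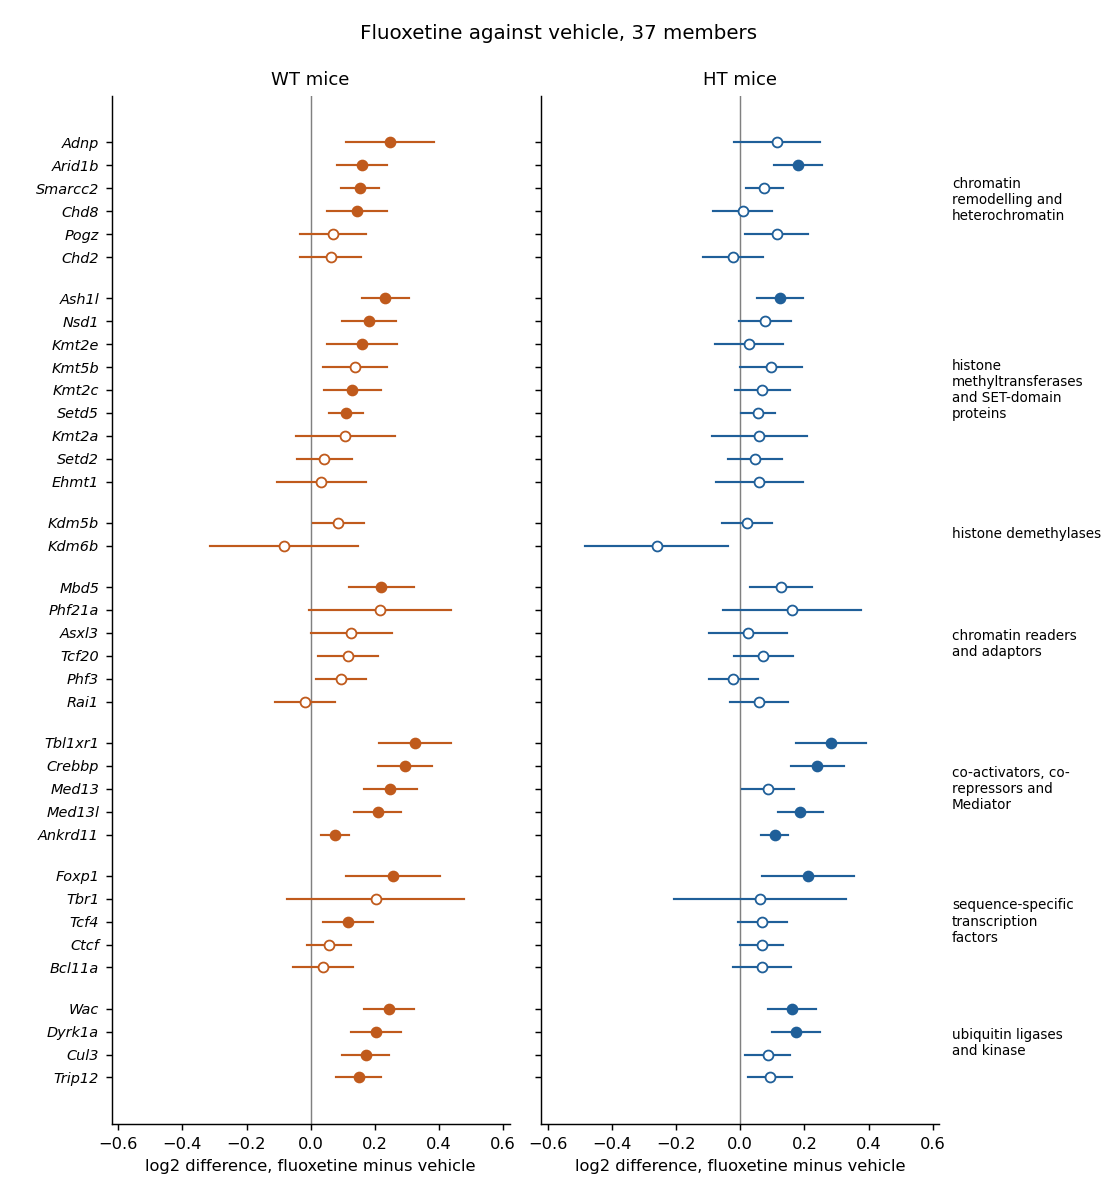
Log2 difference of fluoxetine minus vehicle for each of the 37 genes (points) with its 95% confidence interval (lines), in WT mice on the left and HT mice on the right, ordered by role. Filled points passed an adjusted p under 0.05: 21 genes in WT and 9 in HT mice, all to the right of 0, while Kdm6b lies to the left of 0 in both.

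Among the 6 genes for nucleosome remodelling and heterochromatin, 4 rose in WT mice and 1 in HT mice. Smarcc2, the core subunit of neuronal BAF complexes (chr10:128459248-128490482), had normalized counts of 7773 to 8745 (median 8189) in WT vehicle and 8252 to 10497 (median 9101) in WT fluoxetine mice. All 9 fluoxetine libraries exceeded the vehicle median, though the groups overlapped, and the log2 difference was 0.15 (SE 0.031, adjusted p = 0.00025). In HT mice its counts were 7912 to 8983 (median 8442) with vehicle and 8595 to 9390 (median 8814) with fluoxetine, a log2 difference of 0.07 (SE 0.030) that did not pass the threshold in limma (adjusted p = 0.0816). Arid1b, which targets BAF to DNA and is among the most frequently mutated genes in intellectual disability (chr17:4994332-5347656), had counts of 2583 to 2937 (median 2805) with vehicle and 2924 to 3395 (median 3040) with fluoxetine in WT mice. Only the lowest fluoxetine library fell inside the vehicle range, and the log2 difference was 0.16 (SE 0.040, adjusted p = 0.00361). In HT mice Arid1b went from 2588 to 2980 (median 2732) to 2706 to 3739 (median 3092), with 7 of 10 fluoxetine libraries above every vehicle library and a log2 difference of 0.18 (SE 0.039, adjusted p = 0.000923). Chd8, the remodeller most often hit in autism cohorts, rose by 0.14 (SE 0.048, adjusted p = 0.034) in WT mice and differed by 0.01 (SE 0.047) in HT mice. The related Chd2 and the heterochromatin protein Pogz were not called in either genotype.

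Of the 9 histone methyltransferases and SET-domain proteins, 5 rose in WT mice and 1 of these, Ash1l, also in HT mice. Ash1l methylates histone H3 at active genes and opposes Polycomb (chr3:88950622-89079375). Its counts were 5041 to 5553 (median 5348) in WT vehicle and 5682 to 7054 (median 6264) in WT fluoxetine mice, so that the groups did not overlap. The log2 difference was 0.23 (SE 0.038, adjusted p = 1.15e-05). In HT mice Ash1l ran from 5097 to 6566 (median 5333) with vehicle and 5406 to 6414 (median 5920) with fluoxetine. HT vehicle female replicate 1 held the highest vehicle value and lay above every fluoxetine library, and the log2 difference was 0.12 (SE 0.037, adjusted p = 0.0167). Nsd1, the Sotos syndrome gene, Kmt2c, Kmt2e and Setd5 made up the rest of the WT set, with log2 differences of 0.18, 0.13, 0.16 and 0.11. Kmt2a, Kmt5b, Setd2 and Ehmt1 were not called in either genotype, with values from 0.03 to 0.14.

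Neither histone demethylase changed by the test. Kdm5b, which removes methyl groups from active promoters, had counts of 1891 to 2324 (median 2176) in WT vehicle and 2150 to 2503 (median 2229) in WT fluoxetine mice, a log2 difference of 0.09 (SE 0.041, adjusted p = 0.159). Kdm6b, which removes the Polycomb mark and is induced by activity and inflammation (chr11:69398508-69413675), had counts of 864 to 1451 (median 1102) and 785 to 1668 (median 1019) in the same groups, with a log2 difference of −0.08 (SE 0.117). In HT mice it had counts of 824 to 1559 (median 1025) with vehicle and 731 to 1273 (median 878) with fluoxetine. There the log2 difference was −0.26 (SE 0.114, adjusted p = 0.119), with 8 of 10 fluoxetine libraries at or below the vehicle median and wide overlap.

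Of the 6 chromatin readers and adaptors, 1 was called in WT mice and 0 in HT mice. Mbd5, a methyl-CpG-binding-domain protein deleted in a neurodevelopmental syndrome (chr2:48949508-49325405), had counts of 2002 to 2613 (median 2175) with vehicle and 2430 to 3031 (median 2520) with fluoxetine in WT mice. All 9 fluoxetine libraries exceeded the vehicle median and the log2 difference was 0.22 (SE 0.052, adjusted p = 0.0019). In HT mice the ranges were 2014 to 2566 (median 2367) and 2195 to 3065 (median 2544), and the log2 difference of 0.13 (SE 0.050) missed the threshold (adjusted p = 0.0801). Phf21a, Asxl3, Tcf20 and Phf3 had WT values between 0.10 and 0.22 and Rai1, the Smith-Magenis gene, −0.02, none of them called.

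Co-activators, co-repressors and Mediator subunits formed the class with the largest differences, with 5 of 5 called in WT mice and 4 of 5 in HT mice. Crebbp, the acetyltransferase CBP of Rubinstein-Taybi syndrome (chr16:4081328-4213997), whose promoter is printed above, had counts of 2207 to 2389 (median 2323) in WT vehicle and 2540 to 3194 (median 2766) in WT fluoxetine mice. Every fluoxetine library lay above every vehicle library. The difference was 0.29 on the log2 scale, or 1.23-fold (SE 0.043, adjusted p = 2.02e-06). In HT mice its counts were 2151 to 2807 (median 2340) with vehicle and 2533 to 3125 (median 2783) with fluoxetine. A single vehicle library, the highest, reached into the fluoxetine range, and the difference was 0.24, or 1.18-fold (SE 0.042, adjusted p = 5.13e-05). Tbl1xr1, the exchange factor of the nuclear receptor co-repressor complex (chr3:22076652-22216594), had the largest value of the 37 in both genotypes. Its counts were 2167 to 2895 (median 2500) and 2789 to 3784 (median 3199) in WT mice, with a difference of 0.33 or 1.25-fold (SE 0.057, adjusted p = 4.33e-05), and 2085 to 2824 (median 2425) and 2613 to 3226 (median 2912) in HT mice, with a difference of 0.28 or 1.22-fold (SE 0.056, adjusted p = 0.000287). In each genotype 7 fluoxetine libraries exceeded every vehicle library.

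The remaining co-regulators included a pair of paralogs of the Mediator kinase module. Med13l (chr5:118560679-118765438) had counts of 3372 to 3676 (median 3506) with vehicle and 3925 to 4236 (median 4038) with fluoxetine in WT mice, without overlap, and 3455 to 4048 (median 3551) and 3618 to 4386 (median 4154) in HT mice. The log2 differences were 0.21 (SE 0.037, adjusted p = 6.11e-05) and 0.19 (SE 0.036, adjusted p = 0.000239). Med13 (chr11:86267033-86357602) had counts of 3057 to 3430 (median 3154) and 3507 to 4544 (median 3703) in WT mice, again without overlap, with a difference of 0.25 (SE 0.042, adjusted p = 2.82e-05). In HT mice Med13 was not called, with 3002 to 4056 (median 3164) against 3191 to 3786 (median 3508) and a difference of 0.09 (SE 0.041, adjusted p = 0.166). Ankrd11, the KBG syndrome gene (chr8:122883822-123042277), moved least in this class. Its counts were 7162 to 8092 (median 7698) and 7728 to 8459 (median 8162) in WT mice, and 7394 to 8138 (median 7730) and 8159 to 8542 (median 8377) in HT mice. It was the gene whose HT groups did not overlap, with a difference of 0.11 (SE 0.021, adjusted p = 0.000316) there and 0.08 (SE 0.022, adjusted p = 0.0124) in WT mice.

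**Figure D2:**
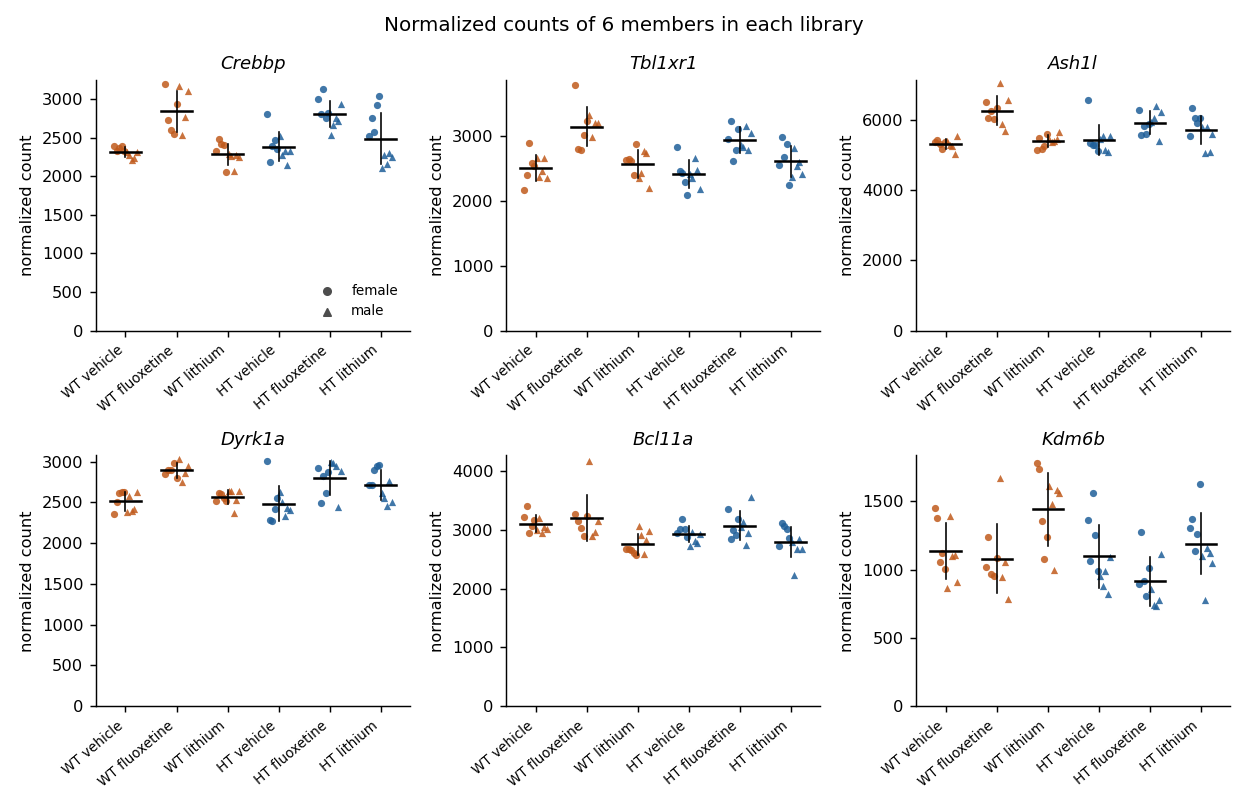
Normalized counts of 6 genes in every library (circles female, triangles male), by group, with the mean (horizontal bar) and 1 SD to each side (vertical line), each axis starting at 0. Crebbp, Ash1l and Dyrk1a show WT fluoxetine libraries that all lie above the WT vehicle libraries, Bcl11a is lowest in the lithium groups, and Kdm6b spreads widely in each group.

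Of the 5 sequence-specific transcription factors, 2 rose in WT mice and 1 in HT mice. Foxp1, a forkhead factor of cortical and striatal neurons (chr6:98925338-99522721), had counts of 1706 to 2989 (median 2629) with vehicle and 2573 to 3802 (median 2963) with fluoxetine in WT mice, a difference of 0.26 (SE 0.075, adjusted p = 0.0131). The ranges overlapped, and without WT fluoxetine male replicate 4 the difference was 0.20 and no longer called (adjusted p = 0.0661). In HT mice they were 2050 to 3129 (median 2533) and 2104 to 3504 (median 3077), a difference of 0.21 (SE 0.072, adjusted p = 0.0408). That HT call was lost on leaving out any of 11 of the 20 libraries, with adjusted p up to 0.0994, while without the 4 libraries that stood apart the difference was 0.27. Tcf4, the Pitt-Hopkins gene, rose by 0.12 (SE 0.040, adjusted p = 0.037) in WT mice. Bcl11a, Ctcf and Tbr1 were not called. HT fluoxetine female replicate 2 held the extreme values of its group for Tcf4 (15673, others 10833 to 12000) and for Tbr1 (1093, others 3576 to 4784).

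All 4 genes for ubiquitin ligases and the kinase rose in WT mice and 2 rose in HT mice. Wac, an adaptor for histone ubiquitination, had counts of 3159 to 3539 (median 3319) with vehicle and 3674 to 4181 (median 3928) with fluoxetine in WT mice, without overlap (difference 0.24, SE 0.040, adjusted p = 1.24e-05). In HT mice its counts were 2882 to 3507 (median 3378) and 3144 to 4123 (median 3731), a difference of 0.16 (SE 0.038, adjusted p = 0.00264). Dyrk1a, the dosage-sensitive kinase of the Down syndrome region (chr16:94570010-94695517), had counts of 2354 to 2630 (median 2541) and 2744 to 3037 (median 2893) in WT mice, without overlap (difference 0.20, SE 0.039, adjusted p = 0.000184). In HT mice they were 2274 to 3003 (median 2421) and 2445 to 2991 (median 2880), a difference of 0.17 (SE 0.038, adjusted p = 0.00107). The ligase genes Cul3 and Trip12 rose by 0.17 and 0.15 in WT mice and differed by 0.09 each in HT mice.

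In 6 of the 37 genes every WT fluoxetine library lay above every WT vehicle library, namely Ash1l, Crebbp, Dyrk1a, Med13, Med13l and Wac, where this held for 0.538% of all genes tested. In HT mice it held for Ankrd11, where the table had 0.248%. Leaving out each library in turn, 16 of the 21 WT calls were kept every time. The other 5 were Chd8, Foxp1, Kmt2c, Kmt2e and Tcf4, which lost the call without any of 9, 1, 10, 10 and 8 of the 19 libraries, with adjusted p up to 0.0837, 0.0661, 0.214, 0.108 and 0.1004. Removal of WT fluoxetine male replicate 1 ended the calls of Chd8, Kmt2c, Kmt2e and Tcf4 at once, and that of Kmt2c left a difference of 0.08. That library had the highest count of its group for Kmt2a, Kmt2c, Nsd1, Ehmt1, Med13 and Bcl11a. In HT mice 8 of the 9 calls were kept every time, and all 9 held without the 4 libraries that stood apart. Without HT vehicle female replicate 1, 12 genes were called in HT mice.

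The fluoxetine difference was not shown to depend on genotype or sex. No member was called for the difference HT minus WT, where 0% of all genes tested was called, and 4 had an unadjusted p under 0.05. The 37 values ran from −0.18 to 0.08 with a median of −0.05 and 29 of them below 0. The smallest p was that of Med13 (−0.16, 95% confidence interval −0.28 to −0.05, adjusted p = 0.557), then Phf3, a PHD-finger protein that binds RNA polymerase II (−0.12, interval −0.23 to −0.01). Phf3 had counts of 2671 to 3248 (median 2932) and 2730 to 3450 (median 3140) with vehicle and fluoxetine in WT mice, and 2591 to 3299 (median 2959) and 2744 to 3294 (median 2869) in HT mice. Calls made in WT mice alone were thus not shown to be particular to that genotype.

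Male minus female, 0% of all genes tested was called in WT and 0% in HT mice, and no member. Within each sex the WT median of the 37 was 0.14 in females and 0.14 in males, with 30 genes above 0 in both, and in HT mice it was 0.06 and 0.11, with 27 above 0 in both. The smallest p in WT mice was that of Adnp, the activity-dependent neuroprotector, a zinc finger partner of Chd4. Female WT mice had Adnp counts of 1846 to 2028 (median 1927) with vehicle and 2244 to 2959 (median 2799) with fluoxetine, while male WT mice had 2220 to 2562 (median 2290) and 1973 to 2647 (median 2411). The female ranges were separate and the male ranges overlapped. The log2 differences were 0.49 in females and 0.00 in males, and their difference of −0.49 (interval −0.76 to −0.21) had an adjusted p of 0.499. In HT mice the smallest p was that of Asxl3 (0.26, adjusted p = 0.588), whose log2 differences were −0.11 in females and 0.15 in males.

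These genes have long transcripts, and transcript length moved with the fluoxetine comparison across the whole table. Their median transcript length was 6.65 kb, with a range from 2.69 to 16.5 kb, against 2.68 kb over all genes tested, and each of the 37 was above that median. Across 16908 genes with a known length, the fluoxetine difference in WT mice had a Pearson correlation of 0.33 and a Spearman correlation of 0.46 with log2 length, and in HT mice 0.19 and 0.29. Genes are not independent replicates, and the same libraries lie behind every point. Within the 37 genes the same correlations were −0.07 and −0.05 in WT mice and −0.15 and −0.20 in HT mice. The slope of log2 deviation on log2 length in single libraries ran from −0.06 to −0.02 in WT vehicle and from 0.03 to 0.09 in WT fluoxetine mice, without overlap. In HT mice it ran from −0.07 to 0.07 with vehicle and from −0.01 to 0.07 with fluoxetine, and HT vehicle female replicate 1 held the 0.07.

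By length class, the share of all genes called higher in WT mice was 1.07% under 2 kb, 4.26% from 2 to 4 kb, 14.6% from 4 to 6 kb, 26.2% from 6 to 8 kb, 33.8% from 8 to 10 kb and 43.2% at 10 kb or more. The members called were 5 of 9, 5 of 8, 3 of 8, 5 of 7 and 3 of 5 in the classes from 2 kb upward. In HT mice the shares of all genes were 6.14%, 11.1%, 15.5%, 17.4% and 27.7% in those classes, and the members called were 2 of 9, 3 of 8, 0 of 8, 3 of 7 and 1 of 5. Thus in WT mice the members stood furthest above their length class at 2 to 6 kb, and in HT mice some classes held no more called members than their share of genes. The classes were not matched for expression, and the members had a median count of 3019 against 545 over all genes tested.

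**Figure D3:**
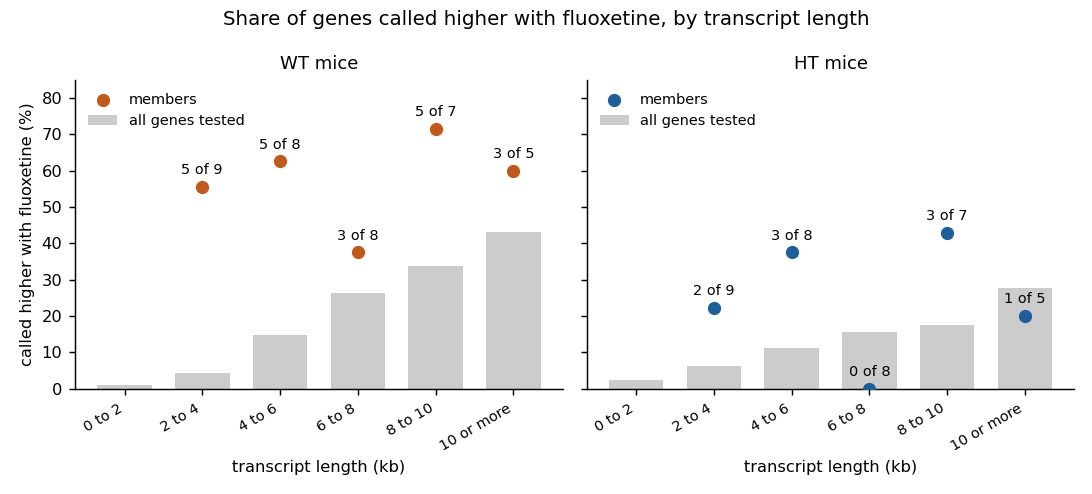
Percentage of genes called higher with fluoxetine in classes of transcript length in kb, for all genes tested (grey bars) and for the 37 genes (points, with counts). Bars climb from 1.07% to 43.2% in WT mice, and the points lie above their bars in each WT class but not in each HT class.

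When each library's smooth dependence on length and GC share was taken out before the fit, 7 of the 37 were called higher with fluoxetine in WT mice, where 2.19% of all genes were. They were Smarcc2, Ash1l, Tbl1xr1, Crebbp, Foxp1, Wac and Dyrk1a, all called before the correction as well, and the median of the 37 was 0.05 with 28 above 0. In HT mice 5 were called higher (4.80% of all genes), namely Tbl1xr1, Med13l, Crebbp, Wac and Dyrk1a, and Kdm6b was called lower (−0.33, SE 0.108, adjusted p = 0.0411), with a median of 0.05. Crebbp, Dyrk1a, Tbl1xr1 and Wac were thus called in both genotypes with and without the correction. Their corrected log2 differences in WT mice were 0.20, 0.13, 0.21 and 0.22. The part of length in the other calls was not tested further.

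**Figure D4:**
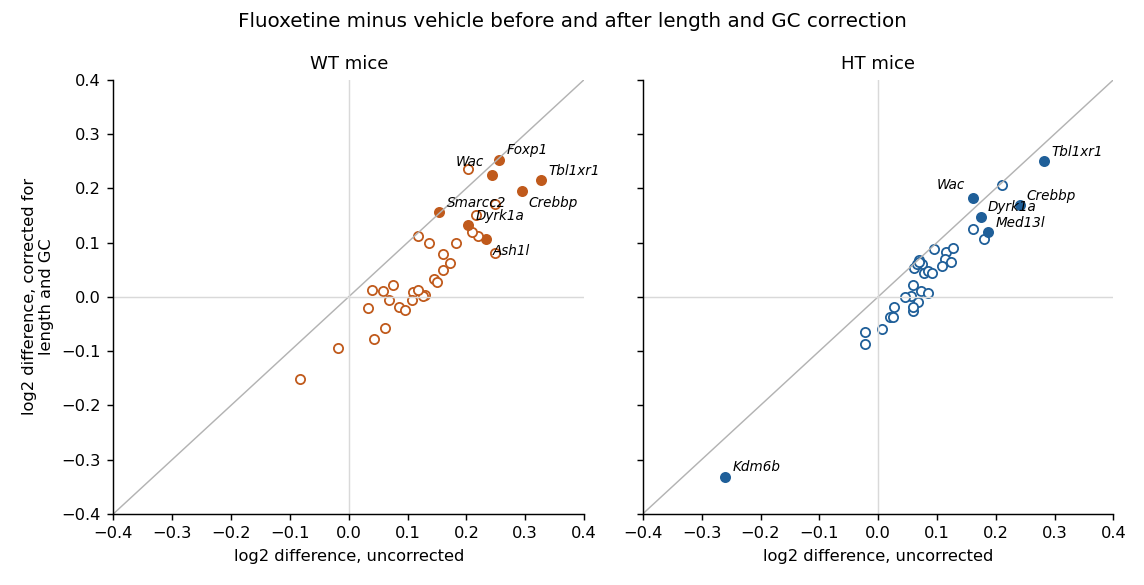
Log2 difference of fluoxetine minus vehicle for the 37 genes before (horizontal axis) and after (vertical axis) the correction for length and GC share, in WT and HT mice. Most points lie below the diagonal line of equal values, and the named, filled points, 7 in WT and 6 in HT mice, passed the adjusted threshold after the correction.

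Some cell markers were called in the fluoxetine comparison as well. Of 51 marker genes for 12 cell types and tissues, 2 were higher (the microglial Csf1r and the endothelial Flt1) and 4 lower (the endothelial Cldn5 and the haemoglobin genes Hba-a2, Hbb-bs and Hbb-bt) in WT mice. In HT mice 4 were higher (Camk2a, Csf1r and the precursor markers Cspg4 and Pdgfra) and 5 lower (Cldn5 and 4 haemoglobin genes). Of all genes tested, 7.0% were called higher and 7.78% lower in WT mice, and 6.63% and 7.38% in HT mice. The mean log2 deviation of the blood markers ran from −0.27 to 0.54 in WT vehicle and −0.72 to 0.14 in WT fluoxetine mice, and from −0.06 to 0.79 and −0.95 to 0.25 in HT mice. The excitatory neuron markers ran from −0.56 to 0.18, −0.35 to 0.25, −0.38 to 0.13 and −0.48 to 0.26 in the same order. All 51 passed the filter on low values, and the part of cell composition in the members' differences was not tested.

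The partners of these proteins were less uniform. In 7 lists of 170 other genes of the same machinery, 29 rose and 15 fell with fluoxetine in WT mice, with a median log2 difference of 0.03, and 20 rose and 10 fell in HT mice, with a median of 0.02. Over all genes tested, 7.0% were called higher and 7.78% lower in WT mice, and 6.63% and 7.38% in HT mice. Of 26 other BAF genes 6 rose and 1 fell in WT mice. Smarca4, the ATPase of the complex, rose by 0.13 (SE 0.029) in WT and 0.16 (SE 0.028) in HT mice, while Actl6b, the neuronal actin-like subunit, fell by 0.17 in WT mice. Of 18 other remodellers 5 rose and 0 fell, among them Srcap (0.32 in WT and 0.24 in HT mice), which deposits a variant histone, Ep400 (0.21 and 0.19), and Atrx (0.20 in WT mice). Of 27 methyltransferases and partners 3 rose and 2 fell in WT mice, with Nsd3 at 0.15 and Dpy30, a small subunit of the KMT2 complexes, at −0.15. Of 15 other demethylases 2 rose (Kdm3b at 0.13 and Kdm7a at 0.18). Of 33 acetyltransferases, deacetylases and co-repressors 2 rose and 4 fell in WT mice. Ncor1, the scaffold to which Tbl1xr1 binds, rose by 0.25 (SE 0.033) in WT and 0.13 (SE 0.032) in HT mice.

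Other Mediator genes went both ways. Beyond Med13 and Med13l, 3 of 31 Mediator genes rose and 7 fell in WT mice, and 3 rose and 8 fell in HT mice. The shares of all genes called in these comparisons were 7.0% higher and 7.78% lower in WT mice, and 6.63% and 7.38% in HT mice. Med1 and Med14 rose by 0.19 and 0.16 in WT mice, and Med10 and Med29 fell by 0.24 and 0.29. Of 20 other cullins and ubiquitin ligases 8 rose and 1 fell in WT mice and 7 rose and 1 fell in HT mice. The giant ligase genes Herc2 (0.23 and 0.17 in WT and HT mice), Herc1 (0.18 in WT mice) and Ubr4 (0.34 in HT mice) were among those that rose, and Rbx1, the small RING subunit of cullin ligases, fell by 0.10 in HT mice. Among 30 autism risk genes of synapse, channels and signalling 14 rose and 1 fell in WT mice and 8 rose and 1 fell in HT mice. The NMDA receptor subunit Grin2b rose by 0.38 in WT and 0.28 in HT mice, and Nf1 rose by 0.32 in WT mice, while the adaptor subunit Ap2s1 fell by 0.30. These lists were chosen with results of these data known, and their counts are descriptions. The counts are not corrected for transcript length. In WT mice 18.9% of all genes under 2 kb were called lower, and 43.2% of those at 10 kb or more were called higher. The part of length in the split between rising and falling partners was not tested.

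Lithium moved few of these genes. In WT mice 0 were called higher and 2 lower, where the table had 1.33% higher and 0.892% lower, and the median of the 37 was 0.00. Bcl11a had counts of 2937 to 3404 (median 3062) with vehicle and 2563 to 3058 (median 2674) with lithium. All 10 lithium libraries were below the vehicle median and 8 were below every vehicle library, and the difference was −0.17 (SE 0.046, adjusted p = 0.0306). It was lost without WT lithium male replicate 3 or 4, WT vehicle female replicate 2 or WT vehicle male replicate 2, with an adjusted p of at most 0.0700. Setd5, a SET-domain protein of a syndromic form of autism (chr6:113077365-113153435), had counts of 4309 to 5040 (median 4602) with vehicle and 4200 to 4579 (median 4337) with lithium. All 10 lithium libraries were again below the vehicle median, and the difference was −0.10 (SE 0.026, adjusted p = 0.0334), a call lost on leaving out any of 9 of the 20 libraries (adjusted p of at most 0.0764). In HT mice the same genes differed by −0.07 and −0.05 and were not called.

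In HT mice lithium gave 1 call higher and 0 lower, where the table had 2.75% higher and 2.26% lower. Dyrk1a had counts of 2274 to 3003 (median 2421) with vehicle and 2453 to 2959 (median 2709) with lithium. All 10 lithium libraries lay above the vehicle median, with a difference of 0.13 (SE 0.038, adjusted p = 0.0368) that was lost on leaving out any of 11 of the 20 libraries (adjusted p of at most 0.0982). In WT mice the Dyrk1a difference was 0.03 (SE 0.038). Kdm6b had the largest lithium value in WT mice, 0.34 (SE 0.114), with counts of 864 to 1451 (median 1102) against 997 to 1783 (median 1519), but missed the threshold (adjusted p = 0.112). For the difference HT minus WT, 0% of all genes was called for lithium. The smallest p among the 37 was that of Foxp1 (0.31, interval 0.11 to 0.51, adjusted p = 0.593), which had 2046 to 2583 (median 2251) in WT lithium and 2557 to 3440 (median 2752) in HT lithium mice. Ankrd11 came next (0.07, adjusted p = 0.712), with 7114 to 7838 (median 7548) and 7664 to 8331 (median 7873).

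**Figure D5:**
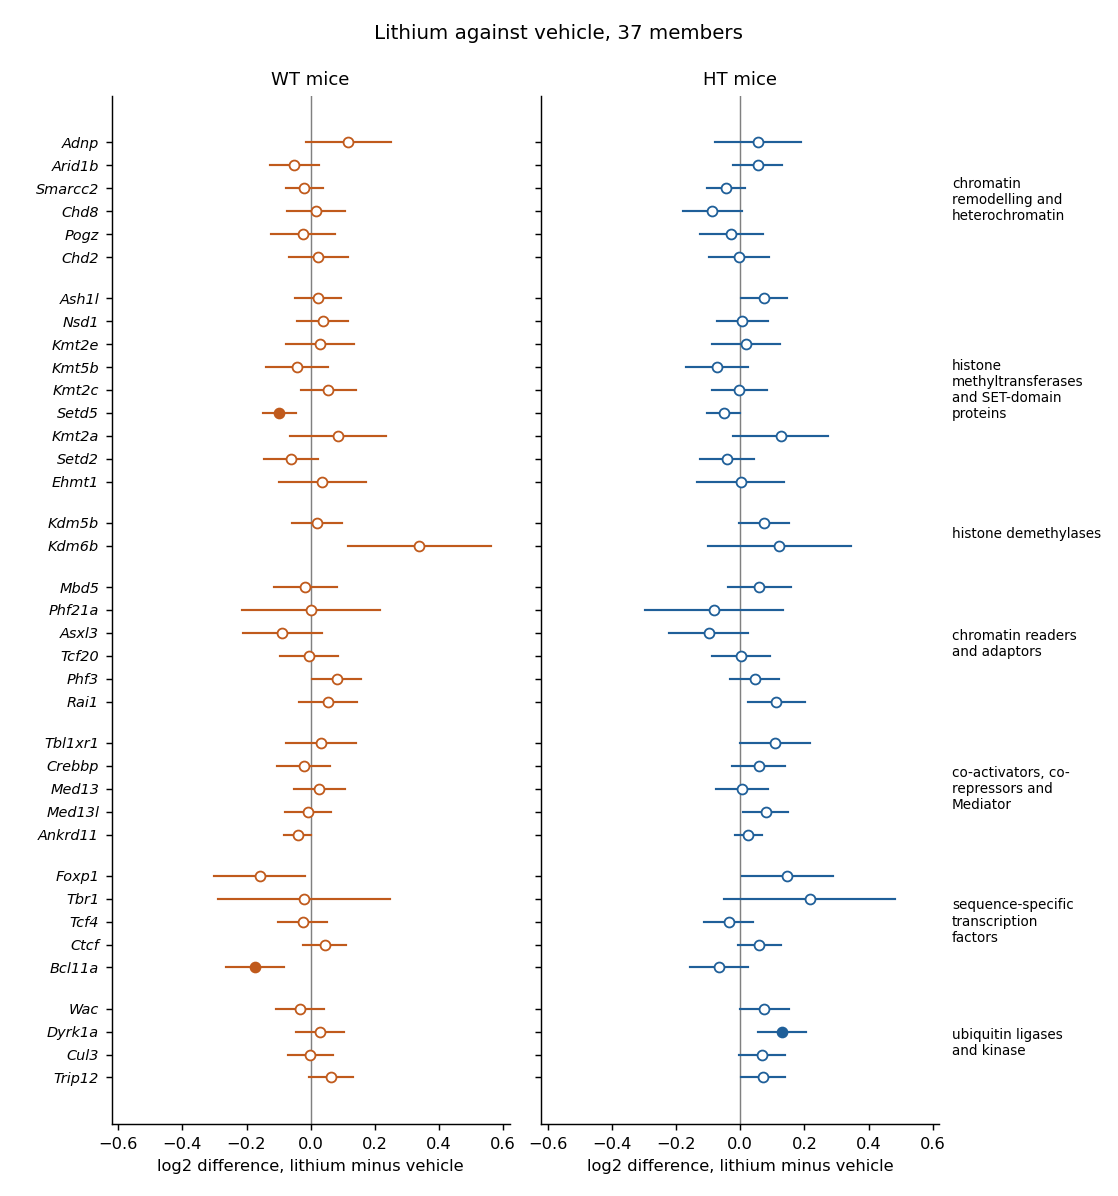
Log2 difference of lithium minus vehicle for the 37 genes with 95% confidence intervals, in WT and HT mice, on the axis range used for fluoxetine. Points lie on both sides of 0, and the 3 filled points that passed the threshold are Bcl11a and Setd5 (lower, WT) and Dyrk1a (higher, HT).

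Fluoxetine was also set against lithium, as a contrast in the same model of all groups, whose estimate of spread includes the vehicle libraries. In WT mice 19 of the 37 were higher with fluoxetine than with lithium and 1 was lower, where the table had 10.1% higher and 11.2% lower. In HT mice 9 were higher and 1 lower, against 6.18% and 6.88%. The median differences of the 37 were 0.14 in WT and 0.07 in HT mice, as for fluoxetine against vehicle. In HT females alone 0 were called, with a median of −0.01 and 18 of 37 above 0. Of all genes, 1.99% were called higher and 2.35% lower in that fit. In HT males alone 11 were called, all higher, with a median of 0.13, against 2.93% higher and 3.98% lower over all genes. The difference between the sexes was not tested. Setd5 had counts of 4695 to 5550 (median 4926) in WT fluoxetine and 4200 to 4579 (median 4337) in WT lithium mice, without overlap, a difference of 0.21 (SE 0.027, adjusted p = 1.4e-07). Foxp1 had the largest positive difference in WT mice, 0.41 or 1.33-fold (SE 0.075, adjusted p = 4.05e-05), with 8 of 9 fluoxetine libraries above every lithium library. Crebbp differed by 0.32 (SE 0.043, adjusted p = 3.42e-07) in WT and 0.18 (SE 0.042, adjusted p = 0.00199) in HT mice. Arid1b, Smarcc2, Kmt5b, Setd5, Tbl1xr1, Med13l, Ankrd11, Crebbp and Bcl11a were the genes higher in both genotypes.

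Kdm6b was the exception in both genotypes. Its counts were 785 to 1668 (median 1019) with fluoxetine against 997 to 1783 (median 1519) with lithium in WT mice, and 731 to 1273 (median 878) against 781 to 1628 (median 1148) in HT mice. The ranges overlapped, with 1 fluoxetine library above the lithium median in each genotype. The log2 differences were −0.42, or 0.746-fold (SE 0.117, adjusted p = 0.00657), in WT and −0.38, or 0.768-fold (SE 0.114, adjusted p = 0.018), in HT mice. Both calls were kept on leaving out each library in turn, and the HT value was −0.39 without the 4 libraries that stood apart. In the HT comparison, Arid1b, Bcl11a, Med13l and Tbl1xr1 lost their calls without some single library, with adjusted p up to 0.112.

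Within groups the 37 genes varied together to a modest degree. Over the 59 libraries, after subtraction of group means, the mean Pearson correlation of the 666 pairs was 0.17, and 512 pairs were above 0, against a mean of 0.0044 over 10789 genes with a mean count of at least 250. The pairs share libraries, depth and the length trend described above. A mean over most genes lies close to 0 once values are scaled between libraries, so it is a weak reference. Other sets of long, well expressed genes were not examined, and no share of pairs above 0 was taken over all genes. The pair of Tbr1 and Foxp1, both present in deep cortical layers, had the highest value (0.72), followed by Kmt2a with Kmt2c (0.71) and Nsd1 with Med13 (0.70). Kdm6b ran against Tbr1 (−0.62) and Foxp1 (−0.55). Med13 had the highest mean correlation with the other members (0.33) and Tbr1 the lowest (−0.08).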

How the data were processed

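RNA from prefrontal cortex was sequenced in 59 libraries made with a stranded mRNA kit, per the labels' protocols. The submitters' processing notes name the GRCm38 build, DESeq2 1.19.11, Salmon 0.11.2 and R 3.6.0. The deposited values are a normalized signal, taken here as estimated counts scaled between libraries by the authors. A low value was a whole multiple of the worth of 1 read for 29.8% to 71.1% of low values per library (within 0.1 of a step), so whole reads could not be recovered and no count model was fitted. The depth estimated from those steps was 25.9 to 36.5 M reads per library. Rows without a gene model held 0.0033% of the sum.

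Values were tested as log2(value + 1) with limma 3.58.1 (R 4.3.3; trend and robust empirical Bayes) on 16919 genes with a mean of at least 10. The model had 12 group means (genotype, drug and sex) and 47 residual degrees of freedom, and p-values were Benjamini-Hochberg adjusted over all genes tested, with calls under 0.05. Differences are on the log2(value + 1) scale, averaged over the sexes. The test treats each library as independent. Litters are not given, so p-values may be too small if pups of 1 mother are alike. Gene models, transcript lengths and GC content came from GENCODE M21 (GRCm38). Length and GC content were unweighted means over a gene's basic transcripts, the protein-coding ones where present, so length classes depend on the isoforms listed. The script was tested on simulated data. Reads of paralogs such as Med13 and Med13l were divided by the authors' estimation.

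Members and lists were chosen with earlier results of these data known. Group values are given, in each role class, for the members with the smallest p under fluoxetine in each genotype. They are also given for every member called with lithium against vehicle. In the genotype comparison and each drug difference HT minus WT, where none was called, they are given for the 2 with the smallest p. For the sex differences the member with the smallest p in each genotype is named, with counts for Adnp only. For fluoxetine against lithium they are given for some called members only. Values of Tbl1xr1, Med13, Med13l and Ankrd11 under fluoxetine were added after their values were seen. Alternatives were the pseudocount, the filter, scaling, the model, a length and GC correction, a replicate block, single sexes and leaving out libraries. Leaving out the 4 libraries that stood apart, and marker levels as covariates, were added after seeing the data. No promoter entry was used for 9 members.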

Additional observations from a re-analysis of the deposited data

Results flagged for a closer look

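In each group of 9 or 10 libraries, the gap of the highest or lowest count of a gene to its nearest neighbour was set against the range of the group. The gap was above the 95% critical value of Dixon in 28 of 222 gene and group pairs, where chance gives about 5%. HT vehicle female replicate 1 held 6 of them, in normalized counts Adnp 2892 (others 1997 to 2427), Ash1l 6566 (others 5097 to 5551), Med13 4056 (others 3002 to 3511), Med13l 4048 (others 3455 to 3716), Ctcf 2155 (others 1818 to 1990) and Dyrk1a 3003 (others 2274 to 2625). WT fluoxetine male replicate 1 held 6 of them, in normalized counts Kmt2a 9286 (others 5100 to 6431), Kmt2c 5214 (others 3704 to 4211), Nsd1 7912 (others 5851 to 6750), Ehmt1 1498 (others 1115 to 1279), Med13 4544 (others 3507 to 3985) and Bcl11a 4168 (others 2891 to 3266). HT fluoxetine female replicate 2 held 3 of them, in normalized counts Kmt2c 4746 (others 3643 to 4201), Tcf4 15673 (others 10833 to 12000) and Tbr1 1093 (others 3576 to 4784). WT lithium male replicate 3 held 3 of them, in normalized counts Kmt2a 5077 (others 5718 to 6427), Phf21a 755 (others 1263 to 1766) and Dyrk1a 2364 (others 2512 to 2643). Asxl3 was 448 in HT lithium male replicate 2 (others 613 to 786), Bcl11a was 2227 in HT lithium male replicate 2 (others 2668 to 3110) and Kdm5b was 1751 in HT fluoxetine male replicate 4 (others 2047 to 2316). Foxp1 was 3440 in HT lithium female replicate 2 (others 2557 to 2986), Foxp1 was 3802 in WT fluoxetine male replicate 4 (others 2573 to 3172) and Phf3 was 3425 in WT lithium female replicate 2 (others 2953 to 3172). Smarcc2 was 8888 in WT lithium female replicate 4 (others 7738 to 8346), Tcf4 was 9517 in WT lithium female replicate 5 (others 10650 to 11564) and Trip12 was 7858 in WT lithium male replicate 4 (others 6760 to 7332). Setd2 was 3494 in WT vehicle female replicate 5 (others 2857 to 3058).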

How the results depend on the processing

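The count of members called is given for each alternative that moved it by more than 1.5 times. For fluoxetine against vehicle in WT mice the 21 members became 7 with the length and GC correction, 6 with the replicate block and that correction together, 13 with quantile normalization and 10 in males only. In HT mice the 9 became 4 in females only, 5 in males only, and 6 (5 higher, 1 lower) with the length and GC correction, which is within that margin. For lithium in WT mice the 2 became 1 in females only or in a model of the compared groups alone, and 0 in males only or with no filter. For lithium in HT mice the 1 became 0 in males only, with no filter and with quantile normalization. For fluoxetine against lithium the 20 in WT mice became 10 in males only, and the 10 in HT mice became 0 in females only and 6 with the length and GC correction, with or without the replicate block. Of all genes, 1.86% were higher and 3.35% lower in WT males only, and 1.99% and 2.35% in HT females only. With the length and GC correction alone the HT shares were 5.02% and 7.48%. Leaving out 1 library at a time gave 17 to 21 members for fluoxetine in WT mice, 8 to 12 in HT mice, 0 to 2 for lithium in WT mice, 0 to 2 in HT mice, 19 to 22 for the drugs against each other in WT mice and 6 to 11 in HT mice. The 6 came without HT fluoxetine male replicate 5. The lithium call in HT mice was lost without any of 11 libraries, and the 0 in WT mice came without WT lithium male replicate 4 or WT vehicle female replicate 2. Over all genes the fluoxetine calls in WT mice, 1184 higher and 1316 lower, became 371 and 467 with the length and GC correction, 775 and 673 in females only and 334 and 562 in males only, while the 1122 and 1248 in HT mice became 812 and 757 with the correction, 730 and 750 in females only and 165 and 404 in males only. Among the 37 genes, the genotype comparison and both differences between genotypes gave 0 calls under each alternative run, and so did both differences between sexes, which single-sex fits cannot give. No called difference of a single member changed sign under the alternatives run, but some medians of the 37 did. In females only the median for fluoxetine against lithium in HT mice went from 0.07 to −0.01. In males only that for lithium in HT mice went from 0.05 to −0.01, that for lithium HT minus WT from 0.01 to −0.03 and that for genotype from 0.01 to −0.01. The length and GC correction also turned those for genotype and for the WT sex difference, and lithium in WT mice, at 0.00, fell below 0 in 3 settings. Single-sex fits hold fewer samples, and the cause of the other changes was not tested. Labels give the same replicate numbers to each group, but libraries of the same number hardly deviated together (mean correlation 0.009 over 319 pairs, against −0.002 over 1276 other pairs, and 13 of 59 libraries correlated best with their own number). The main fit did not treat the number as a pairing. A correlation over all genes tested cannot exclude a weak effect shared by libraries of 1 number. The replicate block alone gave 22 and 9 members for fluoxetine in WT and HT mice. The median standard error of a member was 0.044 on the log2 scale in the genotype comparison, which sets the precision of these differences. Litters are not given in the labels used here.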

Other observations

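Lithium in HT mice gave different medians in the sexes. The median log2 difference of the 37 genes was 0.09 in females and −0.01 in males, and 14 genes lay above 0 and 6 below 0 in both. Crebbp, the acetyltransferase, had normalized counts of 2516 to 3035 (median 2749) in HT lithium females and 2113 to 2298 (median 2245) in HT lithium males, while HT vehicle females had 2178 to 2807 (median 2394) and HT vehicle males 2151 to 2517 (median 2326). The slope of log2 deviation on transcript length ran from 0.0046 to 0.0635 in HT lithium females and from −0.0677 to −0.0254 in HT lithium males, without overlap. In HT vehicle mice it ran from −0.0342 to 0.0725 in females and from −0.0684 to −0.0154 in males. The difference of the lithium response between the sexes was not tested.

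With the levels of olfactory bulb and striatal markers as covariates, an alternative chosen after seeing the data, 13 members were called with fluoxetine in HT mice and 22 in WT mice, all higher. Of all genes tested, that fit called 5.07% higher and 6.81% lower in HT mice, and 7.97% and 8.58% in WT mice. Without the covariates 9 and 21 members were called higher, with 6.63% and 7.0% of all genes. The olfactory bulb markers had a median level of −1.42 in HT fluoxetine and −0.10 in HT vehicle mice, as a mean log2 deviation, and their part in the count was not tested.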
